A study of Mus musculus with 11 samples.

Results

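The cholesterol and fatty acid synthesis genes are 31 listed genes, found by symbol among the 34866 gene identifiers of the deposited table, and all 31 had enough counts to be tested among 14889 genes. They comprise 4 regulators, 7 genes of the mevalonate steps, 11 of the sterol steps, 1 sterol carrier, 3 of fatty acid synthesis and 5 of desaturation and elongation. They were followed in bulk RNA-seq of mouse gastric corpus mucosa, the acid- and pepsin-secreting part of the stomach lining. The groups were wild-type controls (n = 2) and 3 engineered lines with n = 3 each: ATP4B-DTR, GIF-DTR and, carrying both, GIF/ATP4B-DTR. The lines were models made for ablation of parietal cells, chief cells or both. DTR is the diphtheria toxin receptor, which lets diphtheria toxin kill the mouse cells that carry it. Atp4b encodes a subunit of the parietal cell proton pump and Gif encodes gastric intrinsic factor, which mouse chief cells make. The labels give no toxin dose, collection time, age or sex, and they do not say whether the controls received toxin. Nothing states that the samples of a group came from separate animals, so p-values measure the spread between these samples.

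Cells make cholesterol and fatty acids from acetyl-CoA in the cytosol. Acetyl-CoA enters the mevalonate steps, whose isoprenoid products are joined into squalene and shaped into cholesterol by the sterol steps, or it is carboxylated and extended into fatty acids that are then elongated and desaturated. The transcription factors SREBP1 and SREBP2, encoded by Srebf1 and Srebf2, switch on these genes: when sterols are scarce Scap escorts them out of the endoplasmic reticulum, and when sterols are plentiful Insig1 holds them back. In the stomach, parietal cells are rich in mitochondria and in membrane that is recycled with each round of acid secretion.

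Samples held between 20.7 and 27.9 M counts each (M, mega), and 3 counts, taken as the floor of detection, equalled between 0.107 and 0.166 CPM. CPM here is counts per mega-count, with libraries scaled by TMM, the trimmed mean of M-values. TMM factors of the controls (0.797 and 0.864) were below those of every line sample (0.947 to 1.12). Atp4b measured 4780 and 4360 CPM in control samples, against 474, 640 and 683 in ATP4B-DTR samples, 3470, 2140 and 2780 in GIF-DTR samples and 158, 468 and 243 in GIF/ATP4B-DTR samples. Gif measured 702 and 2300 CPM in control samples, against 824, 331 and 755 in ATP4B-DTR samples, 65.5, 178 and 196 in GIF-DTR samples and 218, 83.7 and 72.3 in GIF/ATP4B-DTR samples. Each gene was thus lower in every sample of the lines named for it than in the other samples. The 9 parietal markers summed to 17400 to 18700 CPM in controls, 3740 to 5210 CPM in ATP4B-DTR, 8200 to 10400 CPM in GIF-DTR and 1570 to 3020 CPM in GIF/ATP4B-DTR. The 7 chief cell markers summed to 85900 to 192000, 17000 to 62000, 5130 to 22600 and 2850 to 12400 CPM in the same order, and the 8 markers of dividing cells to 205 to 298, 534 to 751, 458 to 686 and 661 to 768 CPM. In bulk tissue, fewer cells of a type and less RNA per cell cannot be told apart. The Y-linked genes Ddx3y and Eif2s3y lay at 37.2 CPM or more in both controls, ATP4B-DTR sample 1 and the 3 GIF/ATP4B-DTR samples, and at 0.0793 CPM or less in ATP4B-DTR samples 2 and 3 and all 3 GIF-DTR samples. Uty and Kdm5d, also Y-linked, split the same samples, at 23.5 CPM or more and at 3.31 CPM or less. The GIF-DTR genotype and low Y-linked RNA cannot be told apart in the comparisons of GIF-DTR with controls and with GIF/ATP4B-DTR.

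The proximal promoters show what these genes share in sequence. RefSeq windows reaching from 250 bases before to 50 after the gene start (build GRCm38.p6) were matched by symbol for 24 of the 31 genes. CCAAT, the box bound by NF-Y, was searched on both strands and stood in the windows of 19 of the 24 genes (79.2%), against 41.1% of 27025 genes. GGGCGG, the core of an Sp1 site, stood in 20 of 24 (83.3%), against 38.2%, and both motifs stood in 1 window for 17 of 24 (70.8%), against 14.5%. The general E-box CANNTG stood in 17 of 24 (70.8%), against 75.0%. TCACNCCAC, a form of the sterol element bound by SREBPs, was found in 1 of 24 (4.17%), Hmgcs1, against 1.44%. Different motifs overlapped 10 times within these windows, and a match describes letters only, not an occupied site. Below are the windows of 4 genes that were lower in GIF/ATP4B-DTR than in controls, followed by 2 that were higher, each 5′ to 3′ on the gene's strand, with CCAAT or its complement ATTGG and the sterol element in capitals.
Hmgcs1: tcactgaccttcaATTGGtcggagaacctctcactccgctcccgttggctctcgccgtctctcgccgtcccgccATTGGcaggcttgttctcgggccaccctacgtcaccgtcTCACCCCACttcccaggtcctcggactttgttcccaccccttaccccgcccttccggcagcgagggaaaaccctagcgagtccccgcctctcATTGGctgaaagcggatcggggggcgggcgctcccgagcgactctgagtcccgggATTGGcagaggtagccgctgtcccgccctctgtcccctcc
Insig1: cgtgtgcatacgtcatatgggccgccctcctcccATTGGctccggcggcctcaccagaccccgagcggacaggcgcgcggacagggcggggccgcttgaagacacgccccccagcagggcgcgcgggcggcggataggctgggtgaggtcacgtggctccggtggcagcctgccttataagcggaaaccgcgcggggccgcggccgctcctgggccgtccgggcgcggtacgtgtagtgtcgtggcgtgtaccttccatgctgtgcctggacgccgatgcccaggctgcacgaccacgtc
Hsd17b7: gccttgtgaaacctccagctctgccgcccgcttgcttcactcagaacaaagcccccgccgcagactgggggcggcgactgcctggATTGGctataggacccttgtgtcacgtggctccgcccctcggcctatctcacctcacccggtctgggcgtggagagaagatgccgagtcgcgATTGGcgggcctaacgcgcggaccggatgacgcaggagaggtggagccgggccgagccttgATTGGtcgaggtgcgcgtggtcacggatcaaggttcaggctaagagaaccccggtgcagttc
Fasn: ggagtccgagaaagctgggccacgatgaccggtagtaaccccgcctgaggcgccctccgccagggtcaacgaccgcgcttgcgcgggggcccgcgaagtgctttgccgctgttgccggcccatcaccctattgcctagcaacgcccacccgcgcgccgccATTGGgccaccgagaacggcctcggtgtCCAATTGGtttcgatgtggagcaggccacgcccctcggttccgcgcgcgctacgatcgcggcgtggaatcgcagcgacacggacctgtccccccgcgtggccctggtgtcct
Acat2: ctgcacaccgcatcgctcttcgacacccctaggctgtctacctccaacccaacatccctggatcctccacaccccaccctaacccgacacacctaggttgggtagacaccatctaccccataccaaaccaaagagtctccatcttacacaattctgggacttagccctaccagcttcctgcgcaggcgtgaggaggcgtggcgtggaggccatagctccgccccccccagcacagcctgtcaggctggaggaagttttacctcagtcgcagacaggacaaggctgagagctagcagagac
Elovl6: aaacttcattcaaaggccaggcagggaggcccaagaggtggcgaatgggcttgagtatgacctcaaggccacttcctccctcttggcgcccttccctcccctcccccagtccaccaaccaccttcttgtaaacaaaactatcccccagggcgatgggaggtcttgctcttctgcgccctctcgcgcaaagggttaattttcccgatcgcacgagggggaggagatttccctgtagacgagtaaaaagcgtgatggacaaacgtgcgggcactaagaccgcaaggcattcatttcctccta
Hmgcs1 (chr13:119690101-119690400, plus strand) held 4 CCAAT boxes and the sterol element, Insig1 (chr5:28071162-28071461, plus) 1 CCAAT box, Hsd17b7 (chr1:169969156-169969455, minus) 3, and Fasn (chr11:120824498-120824797, minus) 3. Acat2 (chr17:12960676-12960975, minus) and Elovl6 (chr3:129532136-129532435, plus) held 0. Acly, the other member called lower in GIF/ATP4B-DTR, had 1 box in its window, which is not printed here. Pmvk, which was also higher, had 1 box in 1 of its windows, so the box was present among genes that rose as well as among genes that fell.

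Across the set, changes went in both directions and most members did not pass the test. With edgeR's quasi-likelihood test and Benjamini-Hochberg adjustment over all tested genes, 4 of 31 members (12.9%) differed from control in ATP4B-DTR at an adjusted p under 0.05, 2 higher and 2 lower, against 21.6% of all genes (12.2% higher, 9.39% lower). In GIF-DTR, 1 member (3.23%) was higher and 0 were lower, against 16.8% of all genes (9.97% higher, 6.82% lower). In GIF/ATP4B-DTR, 8 members (25.8%) passed, 3 higher and 5 lower, against 33.6% of all genes (18.2% higher, 15.4% lower). In each line the share of members called in this fit was below that of all genes, a difference that was not tested. For GIF-DTR the order turned in 2 alternatives. DESeq2's Wald test called 8 of 31 members against 22.6% of all genes. A fit of only the 2 groups compared called 7 of 31 against 15.9%. The median log2 fold change of the members was 0.03, 0.11 and -0.07 in the 3 lines, beside -0.02, -0.01 and -0.04 over all genes. The sign of these medians turned with single samples. Without control 2 they were -0.11, -0.06 and -0.17, and without GIF/ATP4B-DTR sample 2 that of GIF/ATP4B-DTR was 0.07. With Y-linked expression as a covariate that of GIF-DTR was -0.17. Before adjustment, 9, 12 and 10 of the 31 members had an edgeR p under 0.05, against 5186, 4668 and 6622 of all 14889 genes. By this count the share of members was above that of all genes in GIF-DTR and below it in the other lines. Scaled by library totals alone, which moved the median over all genes to 0.30, 0.35 and 0.28, the calls became 7 higher and 0 lower for ATP4B-DTR, 8 and 0 for GIF-DTR, and 5 and 2 for GIF/ATP4B-DTR. Over all genes the same scaling gave 3828 higher and 589 lower (29.7% called) for ATP4B-DTR, 3864 and 301 (28%) for GIF-DTR, and 4623 and 1144 (38.7%) for GIF/ATP4B-DTR, so the whole table moved in the same direction. Under that scaling Insig1 and Acly remained called as lower in GIF/ATP4B-DTR, and the falls of Srebf2 and Acly in ATP4B-DTR and of Hmgcs1, Hsd17b7 and Fasn in GIF/ATP4B-DTR did not pass.

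The samples of a line lay wholly above the controls for 5 members with ATP4B-DTR, 7 with GIF-DTR and 4 with GIF/ATP4B-DTR, and wholly below for 5, 13 and 7. Over all genes the shares were 25.3%, 25.0% and 29.1% above and 23.2%, 23.0% and 27.2% below. The 13 members below the controls in GIF-DTR included 6 of the 11 sterol-step genes, none of which passed the adjusted test there.

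**Figure D1:**
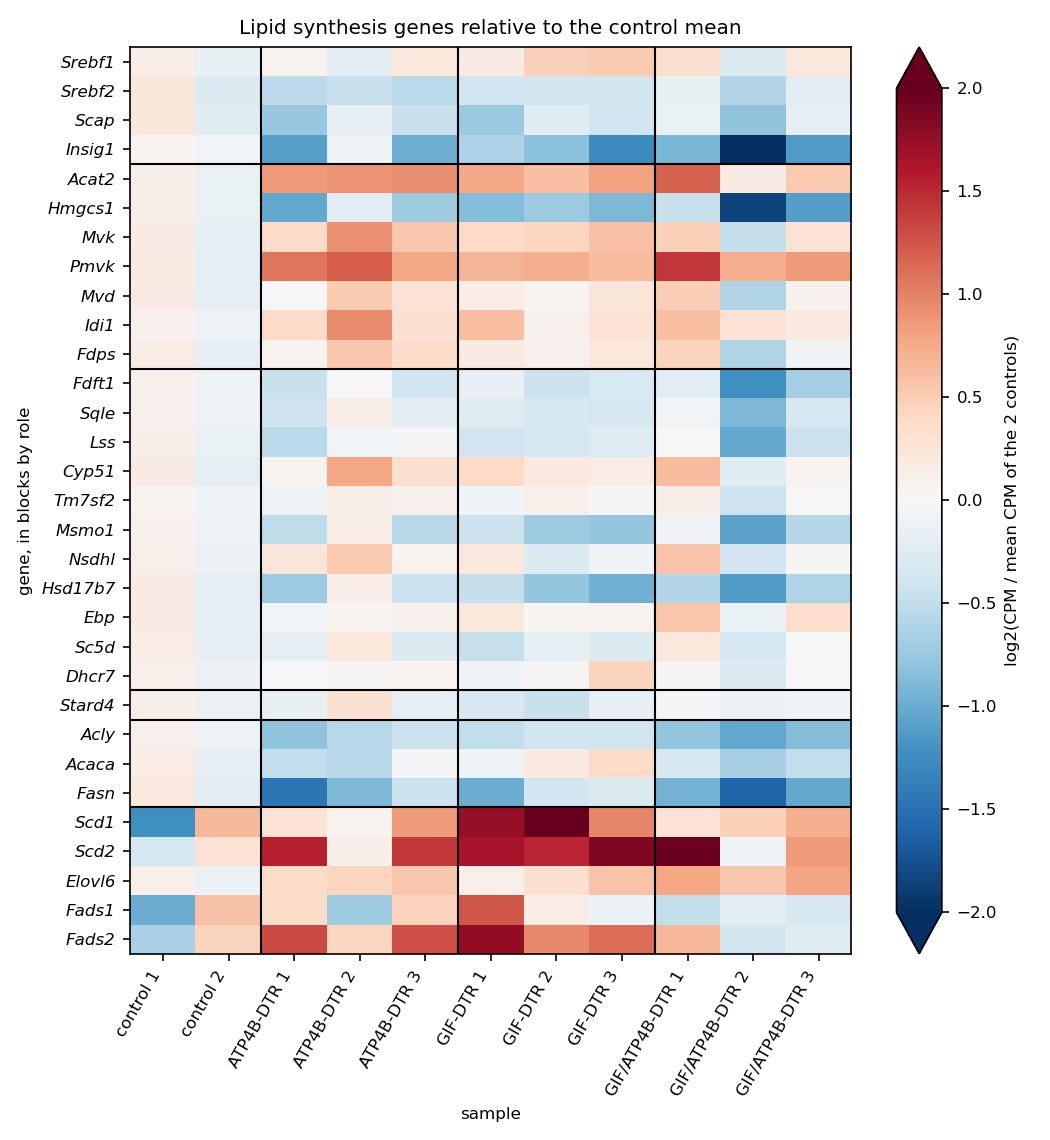
Heat map of the 31 genes (rows, in blocks by role) in the 11 samples (columns), coloured by log2 of the sample's CPM over the mean CPM of the 2 controls, with the scale ending at -2 and 2. Insig1 and Hmgcs1 are blue in most samples of the 3 lines, Acat2 and Pmvk are red in every sample of the lines, and GIF/ATP4B-DTR sample 2 is paler or bluer than its group over the sterol block.

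Among the regulators, Insig1, the sterol-sensing brake on SREBP transport, fell in GIF/ATP4B-DTR. It measured 171 and 159 CPM in control samples, against 78.1, 155 and 83.8 in ATP4B-DTR samples, 107, 93.6 and 68.5 in GIF-DTR samples and 87.7, 38.5 and 75.1 in GIF/ATP4B-DTR samples. All 9 line samples lay below both controls, with ATP4B-DTR sample 2 close to them. The log2 fold change was -1.30 ± 0.36 (SE; edgeR adjusted p = 0.0201) in GIF/ATP4B-DTR, a 2.46-fold lower level, and -0.64 ± 0.37 (0.242) and -0.88 ± 0.36 (0.128) in ATP4B-DTR and GIF-DTR. Without control 1 or control 2 the GIF/ATP4B-DTR difference had edgeR adjusted p-values of 0.0723 and 0.0733. The gene lies at chr5:28071363-28078662 on the plus strand (mm10 coordinates from GENCODE M21, as for the genes below).

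Srebf2, the sterol-side transcription factor, fell in ATP4B-DTR. It measured 301 and 213 CPM in control samples, against 178, 189 and 176 in ATP4B-DTR samples, 197, 200 and 199 in GIF-DTR samples and 232, 172 and 223 in GIF/ATP4B-DTR samples. The ATP4B-DTR and GIF-DTR samples were tightly grouped below both controls, whereas GIF/ATP4B-DTR overlapped control 2. The log2 fold change in ATP4B-DTR was -0.51 ± 0.17 (edgeR adjusted p = 0.0494), and it stayed under the threshold in only 2 of the 11 fits that left out 1 sample, those without control 2 or without GIF/ATP4B-DTR sample 2. In the other 9 the adjusted p reached up to 0.389, the value without control 1, where the log2 fold change was -0.24.

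The other regulators gave no call. Srebf1, the fatty acid-side factor, measured 63.0 and 51.6 CPM in controls and between 47.3 and 82.1 CPM over all 11 samples, and its 3 GIF-DTR samples (64.1, 79.9 and 82.1 CPM) lay above both controls (log2 0.39 ± 0.20, edgeR adjusted p = 0.198). Scap, the escort protein, ranged from 82.8 to 169 CPM, with log2 fold changes of -0.44, -0.45 and -0.35 for ATP4B-DTR, for GIF-DTR and for GIF/ATP4B-DTR in that order.

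**Figure D2:**
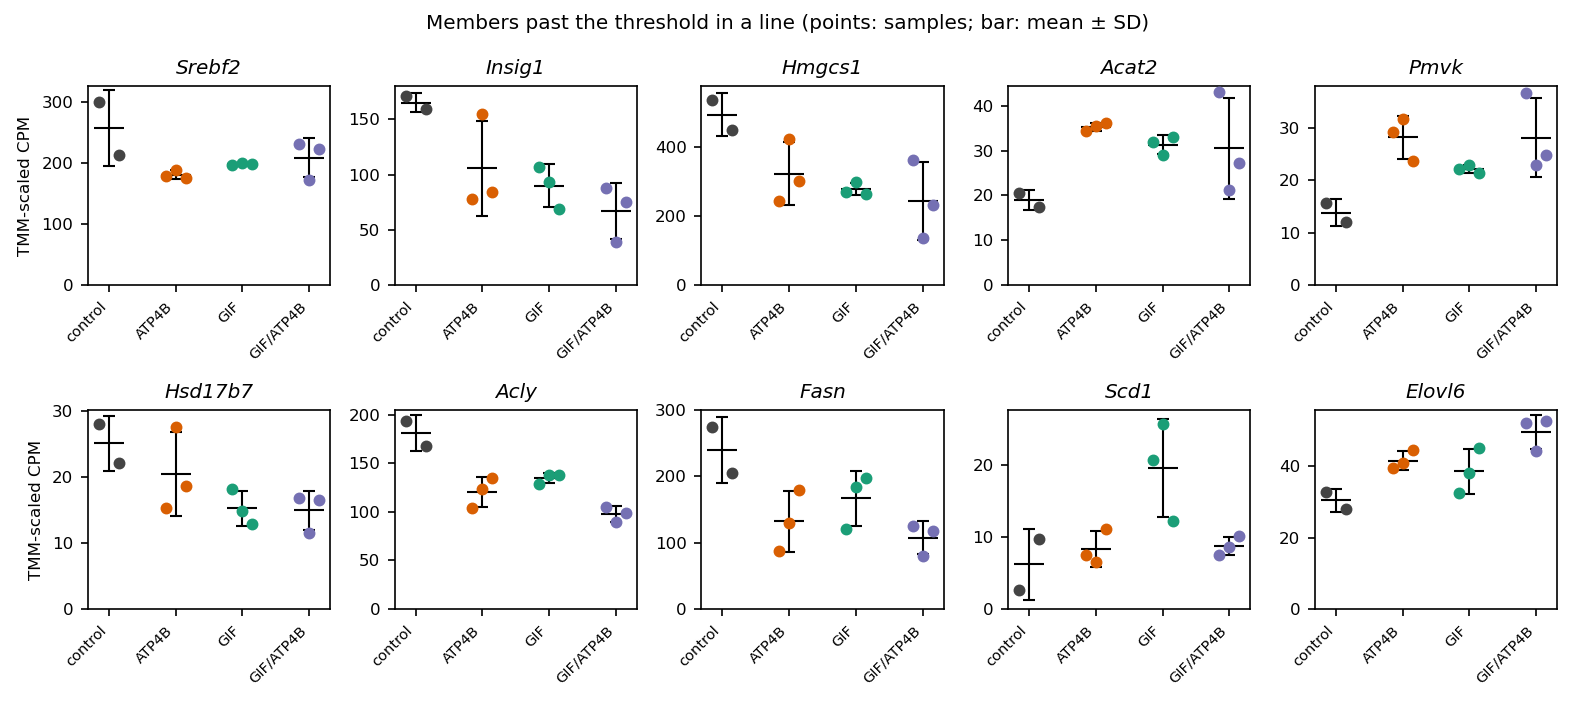
TMM-scaled CPM of the 10 members that passed the test in at least 1 line, 1 panel per gene with its own axis from 0, for controls (n = 2) and the lines ATP4B-DTR, GIF-DTR and their combination GIF/ATP4B-DTR (n = 3 each), with points for samples and bars for mean ± SD. Acly and Fasn lie below both controls in all 9 line samples, Acat2 and Pmvk lie above them, and Scd1 is highest in the 3 GIF-DTR samples.

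The mevalonate steps were split. Hmgcs1, the HMG-CoA synthase that opens the committed route, had the highest control level of all members per kb of exon, 108 CPM per kb, and it fell in GIF/ATP4B-DTR. It measured 538 and 450 CPM in control samples, against 244, 423 and 303 in ATP4B-DTR samples, 271, 298 and 264 in GIF-DTR samples and 364, 137 and 231 in GIF/ATP4B-DTR samples. Every line sample was below both controls, and the GIF/ATP4B-DTR samples were the most spread. The log2 fold changes were -0.61 ± 0.33, -0.83 ± 0.33 and -1.02 ± 0.33 for ATP4B-DTR, for GIF-DTR and for GIF/ATP4B-DTR in that order, for which the edgeR adjusted p was 0.222, 0.114 and 0.0366. Leaving out GIF/ATP4B-DTR sample 2, the lowest, gave -0.73 with an edgeR adjusted p of 0.0666, and leaving out control 1, control 2 or GIF/ATP4B-DTR sample 3 gave 0.144, 0.0865 and 0.0924. Hmgcs1 lies at chr13:119690379-119708260, plus strand.

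Acat2 and Pmvk went the other way. Acat2, the cytosolic thiolase that joins acetyl-CoA units ahead of Hmgcs1 (chr17:12942890-12960747, minus strand), measured 20.5 and 17.4 CPM in control samples, against 34.4, 35.5 and 36.1 in ATP4B-DTR samples, 32.0, 28.9 and 33.1 in GIF-DTR samples and 43.1, 21.2 and 27.3 in GIF/ATP4B-DTR samples. All 9 line samples were above both controls, though GIF/ATP4B-DTR sample 2 only narrowly. It rose by 0.90 ± 0.24 on the log2 scale in ATP4B-DTR (edgeR adjusted p = 0.0226) and by 0.69 ± 0.24 in GIF/ATP4B-DTR (0.0459), and the difference was 0.72 ± 0.24 in GIF-DTR (0.0615). In ATP4B-DTR the edgeR adjusted p was 0.0618, 0.148 and 0.0508 without control 1, control 2 or ATP4B-DTR sample 2. In GIF/ATP4B-DTR the call held in 1 of 11 fits that left out 1 sample, the one without GIF/ATP4B-DTR sample 2, and without sample 1 the log2 fold change was 0.35. Acat2 counts were fractional in all 11 samples. How the fractions arose is not given in the sources used here, and its level is uncertain to that extent.

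Pmvk, the phosphomevalonate kinase (chr3:89454541-89469013, plus strand), measured 15.6 and 12.0 CPM in control samples, against 29.1, 31.7 and 23.7 in ATP4B-DTR samples, 22.1, 22.8 and 21.3 in GIF-DTR samples and 36.7, 22.9 and 24.8 in GIF/ATP4B-DTR samples. No line sample overlapped the controls. It rose 2.04-fold in both ATP4B-DTR (log2 1.03 ± 0.22, edgeR adjusted p = 0.00707) and GIF/ATP4B-DTR (1.03 ± 0.22, 0.00399), and the GIF-DTR difference of 0.68 ± 0.21 had an adjusted p of 0.0511. Leaving out control 2 gave edgeR adjusted p-values of 0.0794 for ATP4B-DTR and 0.0543 for GIF/ATP4B-DTR.

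The remaining mevalonate genes did not pass in any line. Mvk, the mevalonate kinase before Pmvk, measured 20.2 and 16.0 CPM in controls and 23.5, 34.0 and 26.2 CPM in ATP4B-DTR, where the log2 difference was 0.62 ± 0.26 (edgeR adjusted p = 0.108). Idi1, the isomerase of the isoprenoid units, measured 134 and 117 CPM in controls and 165, 243 and 155 CPM in ATP4B-DTR (0.58 ± 0.22, 0.0855), with fractional counts in all 11 samples. Mvd, the decarboxylase that ends the mevalonate steps, and Fdps, the farnesyl diphosphate synthase, had log2 fold changes between -0.01 and 0.34 over the 3 lines. All 6 mevalonate genes other than Hmgcs1 had positive fitted values in ATP4B-DTR and GIF-DTR, while Hmgcs1 had negative ones.

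Beside these rises, all 8 dividing-cell markers passed as higher in GIF/ATP4B-DTR and likewise in ATP4B-DTR, while 7 of 8 did so in GIF-DTR. Beside the falls, 6, 4 and 8 of the 9 parietal markers passed as lower for ATP4B-DTR, for GIF-DTR and for GIF/ATP4B-DTR in that order, and 0, 3 and 3 of the 6 tested chief cell markers did. The part of either cell type in the members' changes was not tested.

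Of the 11 sterol-step genes, which turn farnesyl diphosphate into cholesterol, only Hsd17b7 passed, and only in GIF/ATP4B-DTR. Hsd17b7, a ketosteroid reductase that acts after sterol demethylation (chr1:169949535-169969241, minus strand), measured 28.1 and 22.2 CPM in control samples, against 15.3, 27.6 and 18.7 in ATP4B-DTR samples, 18.2, 14.8 and 12.9 in GIF-DTR samples and 16.8, 11.5 and 16.6 in GIF/ATP4B-DTR samples. GIF-DTR and GIF/ATP4B-DTR lay wholly below the controls, and ATP4B-DTR sample 2 lay between them. The log2 fold change was -0.75 ± 0.26 in GIF/ATP4B-DTR (edgeR adjusted p = 0.0414) and -0.72 ± 0.26 in GIF-DTR (0.0771). In GIF/ATP4B-DTR it held in 5 of the 11 fits that left out 1 sample. It was lost without control 1 (0.211), control 2 (0.0686), ATP4B-DTR sample 3 (0.0514), GIF-DTR sample 2 (0.0545) or GIF/ATP4B-DTR sample 2 (0.12) or 3 (0.0607), each an edgeR adjusted p.

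The nearest of the others was Fdft1, the squalene synthase, at 131 and 116 CPM in the controls and 107, 52.8 and 78.0 CPM in GIF/ATP4B-DTR (log2 -0.64 ± 0.24, edgeR adjusted p = 0.0637; fractional counts in all 11 samples). Msmo1, a sterol methyl oxidase, measured 140 and 123 CPM in controls and 97.5, 81.0 and 77.3 CPM in GIF-DTR (-0.63 ± 0.27, 0.142). Sqle, the squalene epoxidase, and Lss, the lanosterol synthase, had fitted values from -0.15 to -0.43 in all 3 lines, which became positive for Sqle (0.15 and 0.06) and Lss (0.13 and 0.04) in ATP4B-DTR and GIF-DTR with library totals only. Cyp51, the sterol demethylase, had positive ones, from 0.20 to 0.41. The sterol reductases Tm7sf2 and Dhcr7 stayed between 19.9 and 39.2 CPM in all 11 samples, with log2 fold changes between -0.07 and 0.15. Ebp and Nsdhl, an isomerase and a dehydrogenase encoded on the X chromosome, and Sc5d, a desaturase, had fitted values between -0.31 and 0.30. Stard4, which carries cholesterol between membranes, measured 49.4 and 41.5 CPM in controls and 36.6, 33.5 and 40.5 CPM in GIF-DTR (-0.30 ± 0.16, edgeR adjusted p = 0.226), with values of 0.00 and -0.08 in the other lines.

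**Figure D3:**
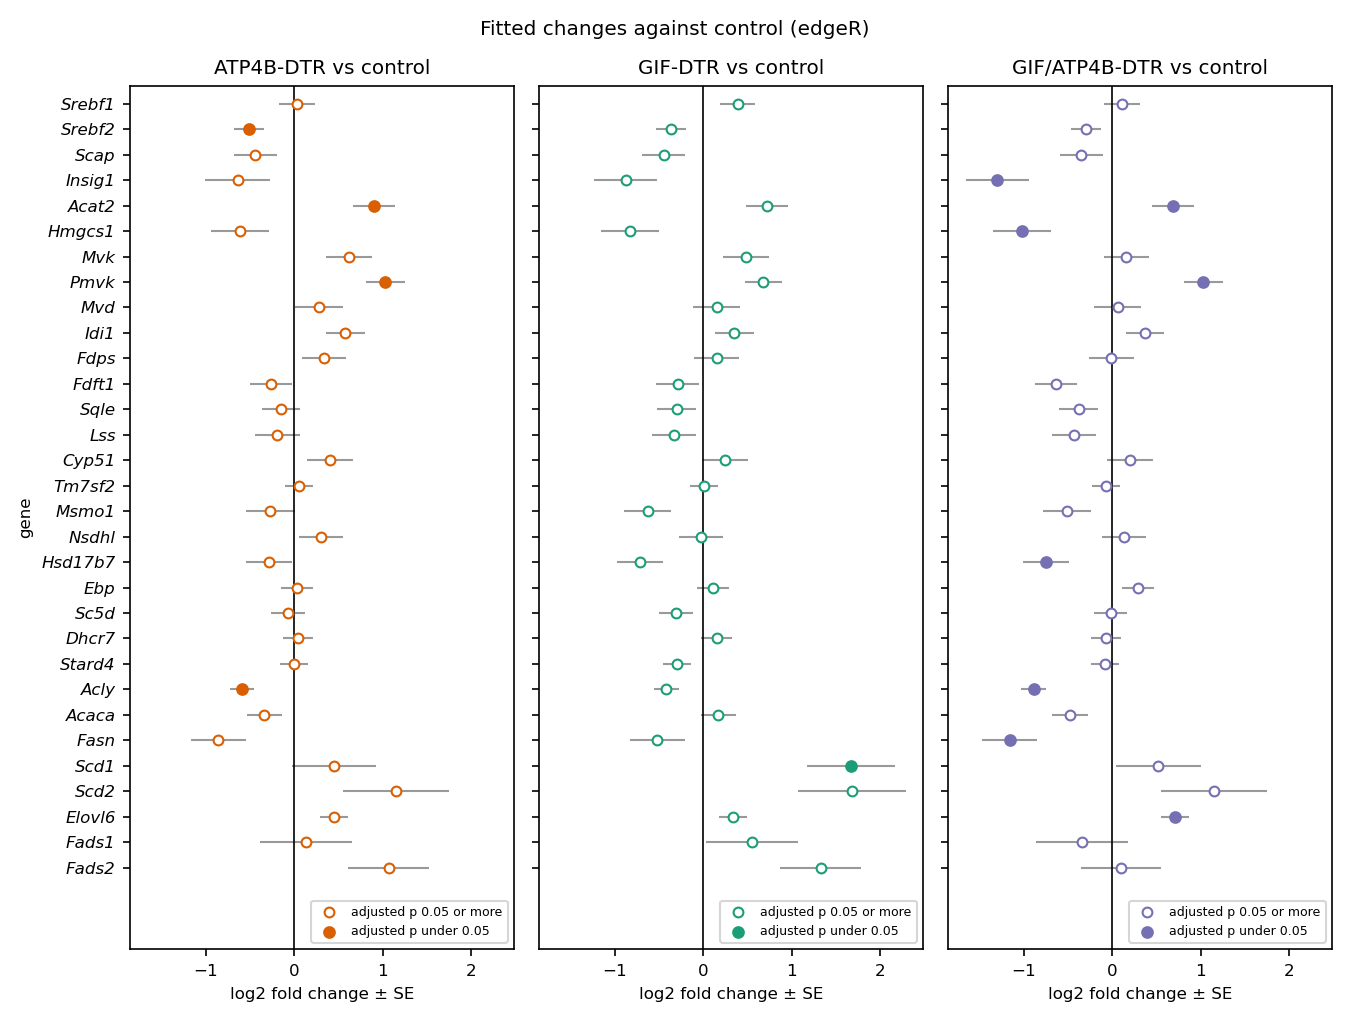
Fitted log2 fold change against control with its SE (horizontal bars) for the 31 genes, 1 panel per line, by edgeR, filled where the adjusted p is under 0.05. Filled points number 4, 1 and 8 from left to right, with Pmvk and Acat2 filled on the right of 0 and Acly on the left in the outer panels.

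Of the 3 fatty acid synthesis genes, Acly fell in ATP4B-DTR and GIF/ATP4B-DTR, Fasn fell in GIF/ATP4B-DTR, and none passed in GIF-DTR. Acly, ATP-citrate lyase, which supplies cytosolic acetyl-CoA from citrate (chr11:100476353-100528000, minus strand), measured 194 and 168 CPM in control samples, against 104, 123 and 135 in ATP4B-DTR samples, 129, 138 and 138 in GIF-DTR samples and 105, 89.3 and 99.1 in GIF/ATP4B-DTR samples. No line sample reached the lower control. It fell by 0.89 ± 0.14 on the log2 scale in GIF/ATP4B-DTR (edgeR adjusted p = 0.000737) and by 0.59 ± 0.14 in ATP4B-DTR (0.0127), and the GIF-DTR difference was -0.42 ± 0.14 (0.0582). The GIF/ATP4B-DTR call held in all 11 fits that left out 1 sample, and that in ATP4B-DTR was lost without control 1 (0.0862). Acly was the only member called in more than 1 line in the downward direction.

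Fasn, the fatty acid synthase (chr11:120805846-120824547, minus strand), measured 275 and 205 CPM in control samples, against 87.6, 129 and 179 in ATP4B-DTR samples, 120, 184 and 197 in GIF-DTR samples and 125, 79.4 and 118 in GIF/ATP4B-DTR samples. All 9 line samples were below both controls, with GIF-DTR sample 3 nearest. It fell 2.24-fold in GIF/ATP4B-DTR (log2 -1.16 ± 0.31, edgeR adjusted p = 0.0144; 0.0897 without control 1), and the differences in ATP4B-DTR and GIF-DTR were -0.86 ± 0.31 (0.069) and -0.52 ± 0.31 (0.279). Acaca, the acetyl-CoA carboxylase between Acly and Fasn, measured 35.0 and 28.2 CPM in control samples, against 22.5, 21.6 and 30.7 in ATP4B-DTR samples, 29.3, 36.1 and 41.4 in GIF-DTR samples and 25.4, 19.9 and 22.5 in GIF/ATP4B-DTR samples, where the log2 fold change was -0.48 ± 0.20 (edgeR adjusted p = 0.0778). Its counts were fractional in all 11 samples. The group order of the Acly and Fasn means, control, GIF-DTR, ATP4B-DTR and GIF/ATP4B-DTR from high to low, was also that of the summed parietal markers, whose part in it was not tested.

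Of the 5 desaturation and elongation genes, 0, 1 and 1 passed against control in the 3 lines, both as higher. Scd1, the main stearoyl-CoA desaturase of liver and fat (chr19:44394455-44407879, minus strand), measured 2.65 and 9.70 CPM in control samples, against 7.45, 6.45 and 11.1 in ATP4B-DTR samples, 20.7, 25.7 and 12.2 in GIF-DTR samples and 7.54, 8.59 and 10.1 in GIF/ATP4B-DTR samples. The 3 GIF-DTR samples exceeded the 8 others, and the lower control stood well under the other samples. It was the 1 member called in GIF-DTR, 3.19-fold higher (log2 1.67 ± 0.50, edgeR adjusted p = 0.0449). The call held in 2 of the 11 fits that left out 1 sample, those without control 2 (log2 2.88) or ATP4B-DTR sample 3, and the value without control 1 was 1.01 (adjusted p = 0.168). With Y-linked expression as a covariate, which nearly coincides with genotype in this comparison, it was 1.47 (edgeR adjusted p = 0.316).

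The 10 listed adipocyte markers summed to 77.4 to 94.4 CPM in controls, 53.1 to 103 CPM in ATP4B-DTR, 42.7 to 76.2 CPM in GIF-DTR and 73.0 to 94.9 CPM in GIF/ATP4B-DTR, and 0 of the 6 tested passed in GIF-DTR. Most of each sum came from 4 of them: Fabp4 (13.0 to 50.7 CPM over all samples), Cidec (10.2 to 40.4 CPM), Lipe (9.77 to 23.7 CPM) and Plin4 (1.29 to 17.8 CPM), whose means were lower in GIF-DTR than in controls. Adipoq, which encodes the adipocyte hormone adiponectin, measured 0.709, 1.42 and 0 CPM in GIF-DTR samples 1, 2 and 3, 0 CPM in the controls and ATP4B-DTR, and at most 0.427 CPM in GIF/ATP4B-DTR. Cfd, which encodes adipsin, measured 2.46, 8.02 and 0.238 CPM in the 3 GIF-DTR samples and at most 1.42 CPM elsewhere. Among the 3 GIF-DTR samples Scd1 had the order of Adipoq, Cfd, Fabp4 and Cidec, and not that of Lipe and Plin4. The 9 macrophage and monocyte markers summed to 109, 151 and 183 CPM in GIF-DTR against 17.7 to 101 CPM in the 8 other samples, and 7 of 9 lay wholly above the controls in GIF-DTR, with 1 passing the test. The part of fat cells or of these immune cells in the Scd1 values was not tested.

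Scd2, the more broadly expressed paralog, measured 34.5 and 53.7 CPM in control samples, against 130, 47.8 and 117 in ATP4B-DTR samples, 138, 127 and 161 in GIF-DTR samples and 172, 41.1 and 79.2 in GIF/ATP4B-DTR samples. GIF-DTR lay wholly above the controls, and 1 sample of each other line lay among them. The log2 fold changes were 1.15 ± 0.60, 1.68 ± 0.61 and 1.15 ± 0.60, with edgeR adjusted p-values of 0.209, 0.0947 and 0.171 in the same order. Fads2, which desaturates polyunsaturated fatty acids, had the lowest control level per kb of all members (0.924 CPM per kb). It measured 1.93 and 4.16 CPM in controls and 10.4, 5.90 and 6.58 CPM in GIF-DTR (log2 1.33 ± 0.46, edgeR adjusted p = 0.0714). Fads1, its partner desaturase, ranged from 3.64 to 17.2 CPM, and the 2 controls alone measured 3.64 and 10.9 CPM. It had the only negative fitted value of the 5 against control, -0.34 ± 0.52 in GIF/ATP4B-DTR (edgeR adjusted p = 0.637).

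Elovl6, which elongates the product of Fasn (chr3:129532355-129638495, plus strand), rose in GIF/ATP4B-DTR. It measured 32.8 and 28.1 CPM in control samples, against 39.5, 40.9 and 44.5 in ATP4B-DTR samples, 32.6, 38.2 and 45.1 in GIF-DTR samples and 52.2, 44.2 and 52.7 in GIF/ATP4B-DTR samples. ATP4B-DTR and GIF/ATP4B-DTR lay wholly above the controls, and GIF-DTR sample 1 fell just below control 1. The log2 fold change in GIF/ATP4B-DTR was 0.71 ± 0.16 (edgeR adjusted p = 0.00534; 0.0634 without control 2), beside 0.45 ± 0.16 (0.0604) and 0.34 ± 0.16 (0.156) in ATP4B-DTR and GIF-DTR. Its counts were fractional in all 11 samples. In GIF/ATP4B-DTR, Elovl6 therefore rose while Acly and Fasn, which act before it, fell.

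Between the lines, 0 members passed the adjusted edgeR test. From ATP4B-DTR to GIF-DTR, 0 of 31 passed against 0.49% of all genes, and DESeq2 called 0 against 2.58%. At an unadjusted edgeR p under 0.05 there were 2 members, against 1460 of all 14889 genes. These 2 were Acaca, higher in GIF-DTR by 0.51 ± 0.18 on the log2 scale (edgeR adjusted p = 0.324), and Scd1, higher by 1.23 ± 0.42 (0.335). From ATP4B-DTR to GIF/ATP4B-DTR, 0 of 31 passed against 0% of all genes, and DESeq2 called 0 against 1.91%. At an unadjusted edgeR p under 0.05 there were 2 members, Acly (-0.30 ± 0.13) and Fads2 (-0.97 ± 0.40), against 1554 of all 14889 genes. From GIF-DTR to GIF/ATP4B-DTR, 0 of 31 passed against 2.53% of all genes, with 6 at an unadjusted edgeR p under 0.05, against 2686 of all 14889 genes. DESeq2 called 3 members, all lower, against 6.9% of all genes in either direction. The 3 were Acly (-0.46 ± 0.13 in edgeR, adjusted p = 0.0867), Acaca (-0.66 ± 0.18, 0.0867) and Fads2 (-1.23 ± 0.40, 0.148). The median log2 difference over all 31 members was -0.13, -0.21 and -0.09 in these 3 comparisons, in order, beside 0.01, 0 and 0.01 over all genes. These medians moved with single samples. The first was 0.02 without ATP4B-DTR sample 2. The other 2 were -0.02 and 0.10 without GIF/ATP4B-DTR sample 2, and -0.42 and -0.37 without GIF/ATP4B-DTR sample 1. The comparisons of the lines with control share the same 2 control samples.

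The mevalonate and sterol genes varied together between samples of the same group in the controls, ATP4B-DTR and GIF/ATP4B-DTR. Control 1 was above control 2 for all 18 of these genes. In ATP4B-DTR, sample 2 was the highest of its group for 14 of 18. In GIF/ATP4B-DTR, sample 1 was the highest for 18 of 18 and sample 2 the lowest for 17 of 18. In GIF-DTR there was no such order, with samples 1, 2 and 3 highest for 8, 4 and 6 genes. The mean deviation from the group mean on the log2 scale was 0.25 in ATP4B-DTR sample 2, 0.40 in GIF/ATP4B-DTR sample 1 and -0.42 in GIF/ATP4B-DTR sample 2, and it stayed between -0.05 and 0.05 in the 3 GIF-DTR samples. The median deviation over all tested genes lay between -0.07 and 0.07 in every library. Summed over the 18 genes, the level was 1700 and 1430 CPM in control samples, against 1260, 1860 and 1400 in ATP4B-DTR samples, 1390, 1290 and 1300 in GIF-DTR samples and 1680, 915 and 1230 in GIF/ATP4B-DTR samples. By this sum, of which Hmgcs1 is the largest part, ATP4B-DTR and GIF/ATP4B-DTR overlapped the controls and GIF-DTR lay below both. By the mean log2 CPM of the 18 genes, which weights them equally, GIF-DTR (5.76, 5.66 and 5.71) lay between the controls (5.86 and 5.59). The range of the sum within ATP4B-DTR and within GIF/ATP4B-DTR was wider than the gap between any pair of group means.

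Correlating these deviations over the 11 samples, with each gene left out of the mean it was compared with, gave a median Pearson r of 0.90 for the 18 genes, from 0.41 (Dhcr7) to 0.98 (Fdps, Fdft1 and Sqle). Over all 14889 tested genes the median was -0.01. An r above 0.8 was reached by 14 of the 18 and by 3.33% of all genes. It was also reached by 6 of 37 neighbouring lipid genes (16.2%), among them Slc25a1 (0.96), Acss2 (0.90) and Insig2 (0.88), and genes of none of these lists, such as Shc1, Marf1 and Ssbp3, reached 0.98. These 6 names were chosen after their values were seen. Among the 153 pairs of the 18 genes the median r was 0.81. Deviations of the samples of a group sum to 0, and all genes of a sample share its library and its scaling, so these coefficients are descriptions. Insig1, which is itself a target of the SREBPs, had an r of 0.86 with the same mean, and Srebf2 and Scap had 0.79 and 0.78. Srebf1 had 0.43.

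The fatty acid genes shared this variation in some groups. The 3 synthesis genes were all higher in control 1 than in control 2, all highest in GIF/ATP4B-DTR sample 1 (mean deviation 0.17) and all lowest in its sample 2 (-0.24), where the 5 desaturation and elongation genes had means of 0.29 and -0.29. These 5 did not move as one there, since 2 of them were lowest in sample 1, and in controls 1 and 2 their means were -0.49 and 0.49, opposite to the sterol genes. Over the 11 samples the 3 synthesis genes had a median r of 0.49 and the 5 desaturation and elongation genes 0.09, with Scd1 at -0.37 and Fads1 at -0.44. In ATP4B-DTR sample 2, where the sterol genes were highest, the mean deviation was -0.04 for the 3 synthesis genes and -0.52 for the 5 desaturation and elongation genes. That library also had the highest sum of 7 pancreatic acinar markers, 89.9 CPM against 24.3 to 56.1 CPM in the others, and the lowest chief cell sum of its group, 17000 CPM. The chief cell sum was also lowest where the sterol genes were highest in GIF/ATP4B-DTR (sample 1, 2850 CPM) and the controls (control 1, 85900 CPM), but in GIF-DTR sample 1 was highest for both (22600 CPM). The 7 fibroblast markers summed to 49.7 and 512 CPM in controls 1 and 2, to 253, 101 and 318 CPM in ATP4B-DTR samples 1 to 3, to 737, 218 and 322 CPM in GIF-DTR samples and, in GIF/ATP4B-DTR samples, to 98.8, 277 and 128 CPM. Their sum was thus lowest where the sterol genes were highest in the controls, ATP4B-DTR and GIF/ATP4B-DTR, but in GIF-DTR sample 1 was highest for both. The r of the 7 with the mean of the 18 ran from -0.33 (Dcn) to -0.68 (Col1a1). The 9 parietal markers had r from -0.78 (Atp4a) to 0.69 (Slc9a4), and the parietal sum was 3740, 3860 and 5210 CPM in the 3 ATP4B-DTR samples, in order, and 1570, 3020 and 2090 CPM in the 3 GIF/ATP4B-DTR samples. In the controls (18700 and 17400 CPM) and GIF-DTR (10400, 8200 and 9550 CPM) the parietal sum was instead highest in sample 1, where the mean of the sterol genes was also highest. The 6 pit cell markers had r from 0.21 (Mucl3) to 0.76 (Gsta1). Their sum was 131000 and 82300 CPM in controls 1 and 2, and 46800, 101000 and 71700 CPM in ATP4B-DTR samples. It was 90700, 98600 and 71700 CPM in GIF-DTR samples and 94200, 88000 and 103000 CPM in GIF/ATP4B-DTR samples. In GIF-DTR the pit sum was thus highest in sample 2, where the mean of the sterol genes was lowest. Whether these differences in cell content bear on the shared variation was not tested.

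**Figure D4:**
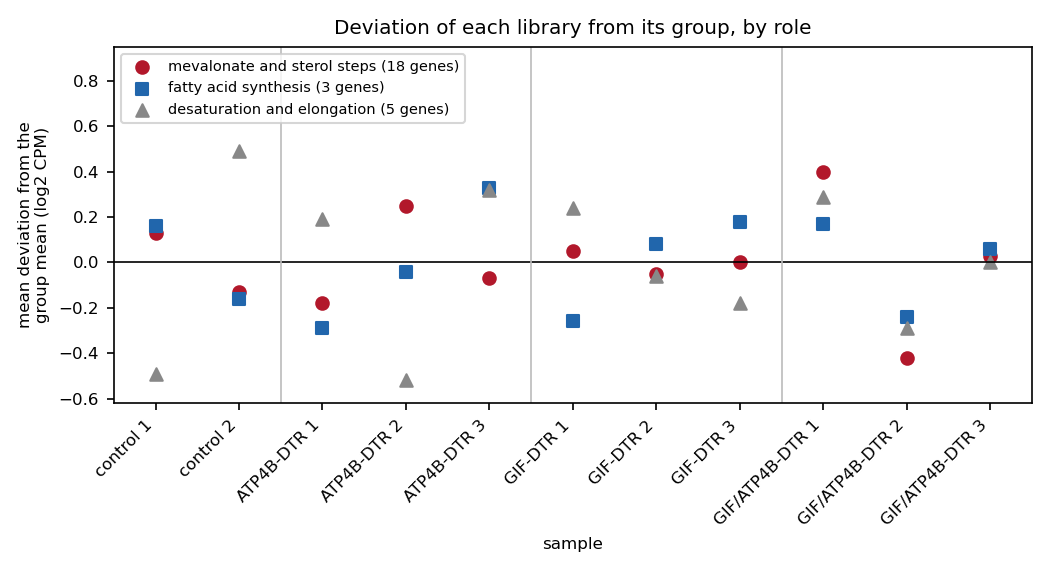
Mean deviation from the group mean (log2 CPM) in each of the 11 samples for 18 mevalonate and sterol genes (circles), 3 fatty acid synthesis genes (squares) and 5 desaturation and elongation genes (triangles). The circles are highest in GIF/ATP4B-DTR sample 1 (0.40) and lowest in GIF/ATP4B-DTR sample 2 (-0.42), and in ATP4B-DTR sample 2 circles (0.25) and triangles (-0.52) part.

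A list of 37 further lipid genes, all tested, places the members in their wider pathway. Of these, 1 passed as higher and 5 as lower in ATP4B-DTR, 1 and 4 in GIF-DTR, and 2 and 7 in GIF/ATP4B-DTR, which are 16.2%, 13.5% and 24.3% beside the 21.6%, 16.8% and 33.6% of all genes. The largest rise among the 37 was that of Pdss1, which makes the isoprenoid tail of ubiquinone from farnesyl and isopentenyl diphosphate. It measured 5.66 and 5.21 CPM in control samples, against 28.2, 26.6 and 27.5 in ATP4B-DTR samples, 12.7, 14.6 and 19.6 in GIF-DTR samples and 20.6, 36.7 and 25.1 in GIF/ATP4B-DTR samples. Its level was 5.05-, 2.87- and 5.04-fold that of the controls (log2 2.34 ± 0.26, 1.52 ± 0.25 and 2.33 ± 0.26; edgeR adjusted p = 0.000336, 0.00367 and 0.000131). With the Y-linked covariate, which nearly coincides with genotype in GIF-DTR against control, the GIF-DTR value was 1.56 with an edgeR adjusted p of 0.0527. Elovl5, an elongase of polyunsaturated fatty acids, was the other gene that rose, to 16.4, 18.7 and 14.5 CPM in GIF/ATP4B-DTR from 6.19 and 12.2 CPM in controls (0.84 ± 0.27, edgeR adjusted p = 0.0336). The call held in 7 of the 11 fits that left out 1 sample. It was lost without control 1, the lower one (log2 0.43, edgeR adjusted p = 0.237), GIF-DTR sample 3 (0.0609) or GIF/ATP4B-DTR sample 1 (0.0583) or 2 (0.0878), and it was 1.41 without control 2.

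The largest called falls were those of Lpin1 in each line, followed by Gpam in ATP4B-DTR and GIF/ATP4B-DTR and by Acsl1 in GIF-DTR. Lpin1, a phosphatidate phosphatase, measured 9.56 and 20.4 CPM in controls and 1.41, 1.15 and 1.42 CPM in GIF/ATP4B-DTR, and its log2 fold changes were -2.57 ± 0.33, -2.10 ± 0.33 and -3.49 ± 0.34 for ATP4B-DTR, for GIF-DTR and for GIF/ATP4B-DTR in that order (edgeR adjusted p = 0.000737, 0.00271 and 6.2e-05), the GIF-DTR call being lost with the Y-linked covariate (log2 -2.04, 0.0757). Without control 1 these were -3.01, -2.55 and -3.93, and without control 2 they were -1.92, -1.46 and -2.84, all still called. Gpam, the mitochondrial acyltransferase that starts glycerolipid synthesis, measured 66.7 and 56.7 CPM in control samples, against 15.4, 14.1 and 21.1 in ATP4B-DTR samples, 30.2, 29.3 and 31.8 in GIF-DTR samples and 10.1, 11.8 and 10.5 in GIF/ATP4B-DTR samples. The 4 groups of Gpam values did not overlap, and the log2 fold changes against control were -1.87 ± 0.17, -1.02 ± 0.17 and -2.52 ± 0.17 (edgeR adjusted p = 0.000104, 0.00332 and 8.72e-06). Acsl1, a long-chain acyl-CoA synthetase, measured 170 and 176 CPM in controls and 82.9, 77.5 and 88.3 CPM in GIF-DTR (-1.06, edgeR adjusted p = 0.00153). The group order of Gpam was again that of the parietal marker sums, and the part of parietal cells was not tested.

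**Figure D5:**
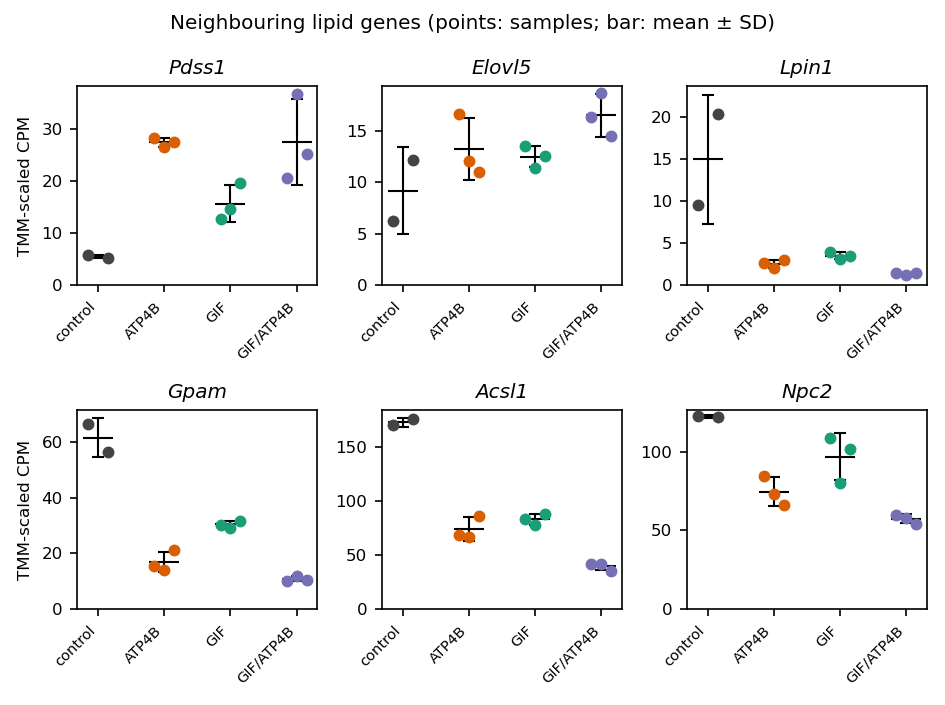
TMM-scaled CPM of 6 neighbouring lipid genes, 1 panel per gene with its own axis from 0, for controls (n = 2) and the single lines ATP4B-DTR and GIF-DTR and the double line GIF/ATP4B-DTR (n = 3 each), with points for samples and bars for mean ± SD. Lpin1, Gpam, Acsl1 and Npc2 lie below the controls in all 9 line samples, and Pdss1 lies above them, from 12.7 to 36.7 CPM against 5.21 and 5.66 CPM.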

How the data were processed

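Bulk RNA-seq of gastric corpus mucosa was deposited as 1 table of expected (estimated) counts per gene, made by the authors, for 11 samples. The unit was read from the values: 30.7% of nonzero entries were fractional and totals differed between samples. The submitters' processing notes name mm10, and the aligner and quantifier are not given in the sources used here. RNA was column-purified and sequenced from stranded poly(A) libraries, per the labels' protocols. Identifiers were matched to symbols for 34582 of 34866 rows (99.2%), and 93.6% of versioned identifiers were in GENCODE M21, which gave coordinates and exon lengths.

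The tests had been chosen for whole counts, so the deposited expected counts were rounded to whole numbers first. Samples were grouped by genotype. Genes were kept by filterByExpr (14889), scaled by TMM, and fitted with edgeR 4.0.16 (limma 3.58.1, R 4.3.3) by quasi-likelihood with robust moderation and 1 coefficient per group over all 11 samples. The common biological coefficient of variation came to 26.6%. Tests are two-sided, with p-values adjusted by Benjamini-Hochberg over all tested genes, with calls at an adjusted p under 0.05. The SE is the size of the log2 fold change divided by the square root of F. The script was tested on simulated data. Floors of 3 counts cover counting error only.

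Alternatives changed the scaling (DESeq2 1.42.0 size factors, library totals only, or a scaling made without the 50 most abundant genes), the tool (DESeq2's Wald test), the filter (none, or 10 counts or more required everywhere), the moderation (not robust), the samples fitted (the 2 groups alone, or 1 sample left out) or added a Y-linked index as covariate. Controls are numbered in the labels and other samples, whose titles are codes, in accession order. The named genes are the 31 members and, per line, the 2 largest rises and falls among called genes of the 37 neighbours, plus Atp4b, Gif and marker genes. The members and lists were chosen with earlier results of these data known. Some results of the planned list are not reported here. Protein sequences were not used here.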

Additional observations from a re-analysis of the deposited data

Results flagged for a closer look

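No member differed between lines in the adjusted edgeR test, and 4 of the neighbouring lipid genes did. They were 4 of 37 (10.8%) between GIF/ATP4B-DTR and GIF-DTR, against 2.53% of all genes, with 1 of them (2.7%) also passing between GIF-DTR and ATP4B-DTR, against 0.49%. Gpam was higher in GIF-DTR (30.2, 29.3 and 31.8 CPM) than in ATP4B-DTR (15.4, 14.1 and 21.1 CPM) by 0.85 ± 0.15 on the log2 scale (SE; edgeR adjusted p = 0.0364), a call that held in 3 of the 11 fits that left out 1 sample. It was lower in GIF/ATP4B-DTR (10.1, 11.8 and 10.5 CPM) than in GIF-DTR, with a log2 difference of -1.50 ± 0.16 (edgeR adjusted p = 0.000501), which held in all 11. The Y-linked genes separate GIF-DTR from GIF/ATP4B-DTR wholly, and with the Y-linked index as covariate none of the 4 genes passed between these lines: the edgeR adjusted p was 0.199 for Gpam (log2 -1.30), 0.356 for Acsl1 (-0.90), 0.269 for Npc2 (-1.01) and 0.674 for Lpin1 (-1.45). Gpam between GIF-DTR and ATP4B-DTR had a log2 difference of 0.79 with that covariate (edgeR adjusted p = 0.175). Between GIF-DTR and GIF/ATP4B-DTR the index nearly coincides with genotype, and its slope rests mostly on ATP4B-DTR sample 1 against samples 2 and 3. The covariate fit therefore cannot separate index from genotype, and no conclusion is drawn from the lost calls.

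Acsl1 measured 82.9, 77.5 and 88.3 CPM in GIF-DTR samples against 41.4, 41.3 and 35.5 in GIF/ATP4B-DTR samples, a difference of -1.07 ± 0.13 (edgeR adjusted p = 0.000946) that held in all 11 fits that left out 1 sample. Npc2, the lysosomal cholesterol-binding protein, measured 109, 80.1 and 102 CPM against 59.9, 58.0 and 54.2 CPM, a difference of -0.76 ± 0.13 (edgeR adjusted p = 0.0122) that held in 9 of 11. Npc2 was outside the rule for named genes and was chosen after its values were seen.

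Lpin1 measured 3.92, 3.11 and 3.41 CPM in GIF-DTR samples against 1.41, 1.15 and 1.42 in GIF/ATP4B-DTR samples, a difference of -1.38 ± 0.31 (edgeR adjusted p = 0.0414) that held in 3 of 11 fits that left out 1 sample.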

How the results depend on the processing

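The number of members called was least stable in GIF-DTR against control, where the single call became 3 with DESeq2 size factors, 8 with library totals only, 3 when scaled without the 50 most abundant genes, 8 by the DESeq2 Wald test, 2 with no filter, 4 with at least 10 counts in every sample, 7 with only the 2 groups and 0 with the Y-linked index, while the share of all genes called went from 16.8% to 17.6%, 28%, 17.4%, 22.6%, 9.93%, 21.8%, 15.9% and 3.73%. Leaving out 1 sample gave 0 to 4 there: 0 without control 1, any GIF-DTR sample or GIF/ATP4B-DTR sample 3. In ATP4B-DTR against control the 4 calls became 7 with library totals only (29.7% of all genes) and 1 to 5 with 1 sample left out (1 without control 1, with 13.8% of all genes called beside 21.6%, and 2 without control 2 or ATP4B-DTR sample 2, with 8.51% and 15.6%). In GIF/ATP4B-DTR against control the 8 calls became 3 to 10 with 1 sample left out (3 without control 1 or control 2, with 28.3% and 18.6% of all genes called beside 33.6%, and 5 without GIF/ATP4B-DTR sample 3, with 27.5%). In GIF/ATP4B-DTR against GIF-DTR the count of 0 became 3 by DESeq2 (6.9% of all genes called, beside 2.53%). It was 1 with no filter (1.85%), 1 with at least 10 counts (3.39%), and 0 to 1 with 1 sample left out (1.08% to 2.54%). The causes were not tested. The other comparisons between lines gave 0 members under every alternative, and no called value changed sign. With only the 2 groups compared, these calls against control did not pass: Srebf2 in ATP4B-DTR, Scd1 in GIF-DTR, and Hmgcs1 and Acat2 in GIF/ATP4B-DTR. Srebf2 in ATP4B-DTR also did not pass without robust moderation, nor Scd1 in GIF-DTR with no filter.

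With the Y-linked index as covariate, these calls against control of members, Pdss1 and Lpin1 no longer passed: Srebf2 (log2 -0.52, beside -0.51 without the index) and Acat2 (0.87 beside 0.90) in ATP4B-DTR, Acat2 (0.69 in both) in GIF/ATP4B-DTR, and Scd1 (1.47 beside 1.67), Pdss1 (1.56 beside 1.52) and Lpin1 (-2.04 beside -2.10) in GIF-DTR. Over all genes, GIF-DTR against control had 556 calls with that index beside 2500 without it, and GIF/ATP4B-DTR against GIF-DTR had 15 beside 376. In these 2 comparisons the index nearly coincides with genotype, so the fit cannot separate them and the lost calls decide nothing. DESeq2 called 383 genes between GIF-DTR and ATP4B-DTR and 987 between GIF/ATP4B-DTR and GIF-DTR, beside 73 and 376 with edgeR, and 1.91% of genes between GIF/ATP4B-DTR and ATP4B-DTR, beside 0%. Leaving out control 1 or control 2 gave 1136 and 871 calls in GIF-DTR and 2143 and 1315 in ATP4B-DTR, beside 2500 and 3211. No paired analysis was possible because the groups share no replicate numbers: the control titles carry 1 and 2, and each other title has a code of its own. The lowest level of any member in any sample was 1.93 CPM, in libraries of 20.7 to 27.9 M counts, and whether more depth would change the calls was not tested.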
